A study of Caenorhabditis elegans with 2 samples.

Results

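The DnaJ, CCT and prefoldin genes of Caenorhabditis elegans were examined for peaks of the C/EBP-family transcription factor CEBP-1 near their 5′ ends. The set held the 42 protein-coding genes whose symbols begin with dnj-, cct- or pfd-, out of 19973 protein-coding genes in all, and dnj-13 was left out. Membership followed the symbol, but the families were picked with earlier results of these data known. It comprised 28 dnj genes, 8 cct genes and 6 pfd genes. Chromatin immunoprecipitation with sequencing was performed on whole young adults of strain OP563, which carries the allele unc-119(tm4063) and the transgene wgIs563, from which CEBP-1 is made with GFP and FLAG fused at its C terminus. The worms were of pooled sex and were collected 63 hours after synchronization as starved L1 larvae. The antibody recognized GFP, and 2 biological replicates, numbered 3 and 7, formed the only group. Neither the promoter nor the copy number of the transgene is given in the sources used here. All animals carried the transgene. Peaks that would also appear in untagged worms, which were not analysed here, cannot be told apart from binding by CEBP-1. Because whole worms were used, stronger binding in few cells and weaker binding in many cannot be told apart either.

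These genes encode 3 cooperating classes of cytosolic and organellar folding factors. DnaJ proteins, also called J proteins or Hsp40s, stimulate the ATPase of Hsp70 chaperones and hand them unfolded clients, and different DnaJ proteins serve the cytosol, the endoplasmic reticulum, mitochondria or synaptic vesicles. CCT, also called TRiC, is a double-ring chaperonin whose subunits, each from its own gene, enclose and fold actin and tubulin. Prefoldin is a jellyfish-shaped complex of alpha-type and beta-type subunits that carries newly made actin and tubulin to CCT.

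The authors' optimal list on the ce11 genome held 5982 peaks. It was derived from longer lists of 30000 peaks each for replicate 3, replicate 7 and the pooled reads. The signal value of a peak is the authors' own and was used here only to rank and describe peaks. The best peak of a gene was the one of highest signal value with its summit in the promoter, taken as the 1000 bp before the gene's 5′ end and the first 200 bp after it. Relative signal is the value of the matching summit in a replicate list, within 100 bp, divided by a median for that replicate. The median was taken over the optimal peaks with a match in that replicate, and optimal peaks without one were left out. A relative signal of 1 is thus that of a typical matched optimal peak, called a typical peak or typical optimal peak below. Read counts are not part of the lists and the depth of each sample is unknown.

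A promoter peak was found at 17 of the 42 chaperone genes (40.5%), while 14.9% of all protein-coding genes had one. The shares were 10 of 28 dnj genes (35.7%), 4 of 8 cct genes and 3 of 6 pfd genes (50% each). The 17 best peaks were all distinct from one another. Among the strongest 25% of optimal peaks, those up to rank 1495, were the best peaks of 4 dnj genes, 3 cct genes and 1 pfd gene, or 19.05% of the members against 5.2% of all protein-coding genes. The median relative signal, as the mean over the replicates, was 1.83 over the 15 members matched in both, against 1.21 over the 2677 genes with a best peak matched in both. No test was made for these comparisons, since the design holds 1 group and genes are not replicates.

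The strongest peak of the set lay upstream of cct-8 (WBGene00021934), which encodes the theta subunit of CCT. It covered chrIV:1094132-1094580 on ce11 and ranked 183 in the optimal list. Its relative signal was 7.89 in replicate 3 and 3.38 in replicate 7, a mean of 5.64 ± 3.18 (SD, n = 2 replicates, as for all means below). The peak of cct-6 (WBGene00000381), the zeta subunit, covered chrIII:5855752-5856182, ranked 377 and was steadier, with 4.38 in replicate 3 and 3.88 in replicate 7 (4.13 ± 0.347). That of cct-7 (WBGene00020391), the eta subunit, covered chrV:1871736-1872128 and gave 2.24 and 1.42 (1.83 ± 0.578). The peak of cct-4 (WBGene00000379), the delta subunit, covered chrII:8283200-8283629 and was the weakest of the whole set, with 0.586 and 0.446 (0.516 ± 0.0990) and rank 5191. In both replicates cct-8, cct-6 and cct-7 thus lay above a typical optimal peak and cct-4 below it, and the order of cct-8 and cct-6 differed between the replicates. The remaining subunit genes, cct-1, cct-2, cct-3 and cct-5, had no optimal promoter peak.

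The DnaJ genes were led by dnj-9 (WBGene00001027), whose peak at chrII:4851645-4852010 ranked 450 with a relative signal of 4.79 in replicate 3 and 2.12 in replicate 7 (3.45 ± 1.89). The next was dnj-14 (WBGene00001032), the cysteine string protein of synaptic vesicles, with 3.68 and 2.14 (2.91 ± 1.09) at chrX:4711844-4712268. Its summit lay inside the non-coding RNA gene DL2.2. The cytosolic type A gene dnj-19 (WBGene00001037) followed at chrV:5505078-5505452 with 3.93 and 1.496 (2.72 ± 1.72), its summit inside the non-coding RNA gene C24G6.10. All 3 were above 2 in replicate 3, and the SD of dnj-9 and dnj-19 was more than 50% of the mean (54.7% and 63.5%), so their order among the 3 was not resolved.

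Further DnaJ peaks were of middle strength. The gene dnj-29, the homolog of the Sec63 translocation factor of the endoplasmic reticulum, had 2.23 in replicate 3 and 1.98 in replicate 7 (2.10 ± 0.176). The gene dnj-11, the homolog of the ribosome-associated yeast zuotin, gave 1.90 and 1.43 (1.66 ± 0.332). The homolog of human DNAJC9, dnj-23, gave 1.48 and 1.35 (1.42 ± 0.0911), and dnj-28 gave 1.67 and 1.13 (1.40 ± 0.378). These 4 exceeded 1 in both replicates. In replicate 7 a stronger summit, with a relative signal of 1.76, lay elsewhere in the dnj-23 promoter and was not matched to its best peak. The other type A gene with a peak, dnj-12, had 1.22 in replicate 3 and 0.517 in replicate 7, dnj-1 had 0.670 and 1.04, and dnj-22 had 0.963 in replicate 3 and no summit within 100 bp among the 30000 listed for replicate 7. Both type A genes of the cytosol therefore had a peak, but only that of dnj-19 was above the typical peak in both replicates.

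Of the prefoldin genes, pfd-1 (WBGene00007443), a beta-type subunit, had the highest relative signal, 2.85 in replicate 3 and 1.06 in replicate 7 (1.95 ± 1.27), at chrIV:11149623-11149935. The alpha-type gene pfd-3 gave 1.75 and 0.528 (1.14 ± 0.862), its summit inside the non-coding RNA gene T06G6.15. The beta-type gene pfd-6 gave 1.43 in replicate 3 and was not matched in replicate 7. In replicate 7 the prefoldin peaks were thus near or below the typical peak or unlisted, while all 3 were above it in replicate 3.

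**Figure D1:**
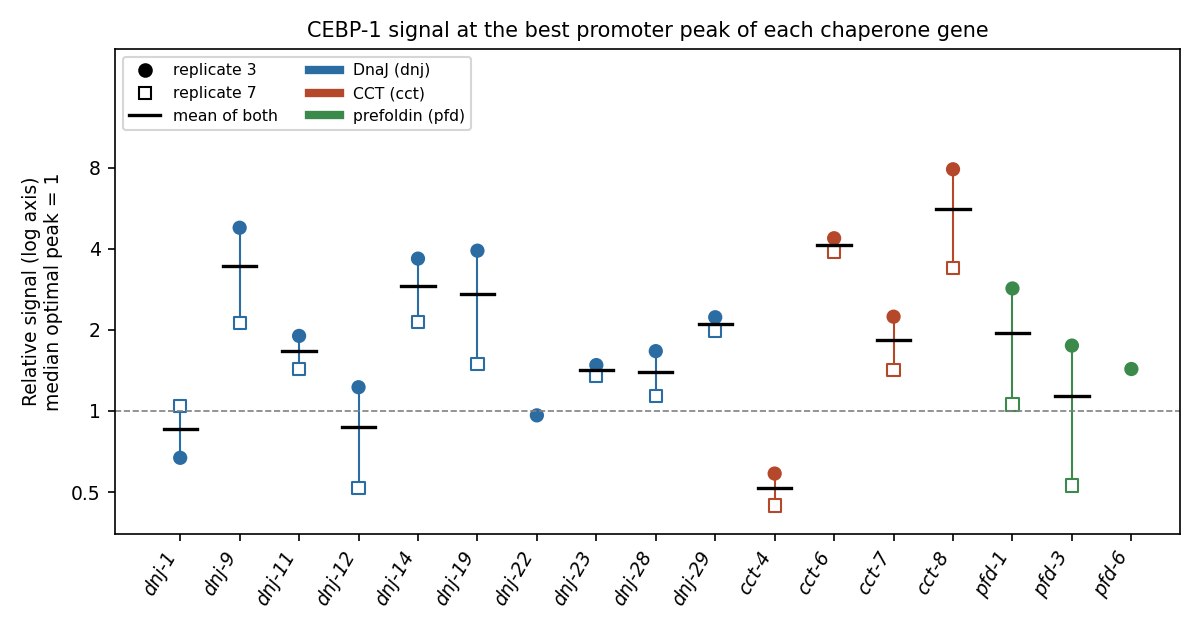
Relative signal (log axis, median matched optimal peak = 1) at the best promoter peak of the 17 chaperone genes that had one, with replicate 3 as filled circles, replicate 7 as open squares and their mean as a black bar. The gene cct-8 is highest with a mean of 5.64 and cct-4 lowest with 0.516, and dnj-22 and pfd-6 have a point for replicate 3 only.

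Replicate 3 gave the higher relative signal at 14 of the 15 members matched in both replicates, dnj-1 being the exception, and at 66.8% of the 2677 matched genes. The SD ran from 6.44% of the mean at dnj-23 to 75.8% at pfd-3, with a median of 31.6%. Relative signal was above 1 in both replicates at 11 of the 17 members (7 dnj, 3 cct and 1 pfd), compared with 41.6% of all genes with a promoter peak. The best peak had a matching summit among the top 5982 of both replicates at 12 of the 17, namely 8 dnj, 3 cct and 1 pfd genes, or 70.6% against 65.7% of all genes with a promoter peak, which is close to that background. The summits of the replicates lay 1 to 60 bp apart over the 15 matched members, with a median of 7 bp, and 13 of the 15 were within 20 bp. Matching itself kept only summits within 100 bp of the optimal one.

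Most of these peaks stood between the member and a neighbour transcribed the other way. The best peak lay in the promoter of another protein-coding gene at 15 of the 17 members (88.2%), whereas 42.4% of all genes with a promoter peak shared theirs. At 14 of the 17 the other gene was divergent, that is, on the other strand with its 5′ end upstream of the member's, against 39% of all genes with a promoter peak. All 4 cct peaks and 9 of the 10 dnj peaks were of this kind, but only 1 of the 3 pfd peaks. In all 14 cases the summit lay between the 5′ ends, which were 239 bp apart at dnj-22 and natc-1, the shortest distance, and up to 934 bp apart at dnj-23 and T24H10.4. At dnj-29 a second divergent gene, fld-1, also had the summit in its promoter, 1086 bp from the member's 5′ end.

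The genes across these promoters had varied roles. The cct-6 peak was shared with alh-9, an aldehyde dehydrogenase gene, and its summit was 294 bp upstream of cct-6 and 37 bp upstream of alh-9. That of cct-4 was shared with nst-1, which encodes a nucleolar GTPase, at 252 and 207 bp. The cct-7 summit stood 294 bp from cct-7 and 145 bp from T10B5.4, and the cct-8 summit 440 bp from cct-8 and 181 bp from Y55F3AR.2. The other gene was thus nearer to the summit at every one of the 4 cct peaks.

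Among the DnaJ genes, the summit at dnj-19 was 392 bp upstream of that gene and 4 bp upstream of the nuclear hormone receptor gene nhr-47, and that of dnj-22 was 187 bp from dnj-22 and 52 bp from natc-1, which encodes a protein N-terminal acetyltransferase subunit. The summits of dnj-1 (648 bp, against 136 bp from B0035.15), dnj-11 (261 against 210 bp from F38A5.2) and dnj-14 (329 against 202 bp from glit-1, a neuroligin-like gene) were also nearer to the other gene. Those of dnj-12, dnj-23, dnj-28 and dnj-29 were nearer to the member, at 53, 14, 106 and 175 bp. Across from dnj-12 lies mtx-1, a metaxin of the mitochondrial outer membrane, and across from dnj-29 lies ndua-2, a subunit of respiratory complex I. With pfd-1, whose summit was 335 bp from its own 5′ end and 274 bp from that of F01G4.6, the other gene was nearer at 10 of the 14 divergent members, against 51% of all 1163 genes with a divergently shared best peak. That background is largely set by construction, since where both genes of a pair have the same best peak, only the farther of them is counted.

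The remaining 3 members had no divergent partner at the peak. The dnj-9 summit was 231 bp upstream and that of pfd-3 39 bp upstream, with no other protein-coding promoter there. The pfd-6 summit was 75 bp upstream of pfd-6 and also within the promoter of rde-2, an RNA interference gene that follows on the same strand, 913 bp from its 5′ end. All 17 summits were upstream of the member's 5′ end, with a median of 252 bp (range 14 to 648 bp), close to the 90.7% upstream and the median of 238 bp over all genes with a promoter peak. Of the 17, 16 were no more than 450 bp away, against 64.6% of all genes with a promoter peak. More than 1 optimal summit was held by 3 of the 17 promoters, or 17.6% against 9.33% of all genes with a promoter peak. The promoter of dnj-23 held 3 and those of dnj-29 and pfd-1 held 2 each. Summits in the same interval were counted separately, and the interval of the best peak held 2 at dnj-23 and at dnj-29. The family medians were 209 bp for dnj, 294 bp for cct and 75 bp for pfd.

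**Figure D2:**
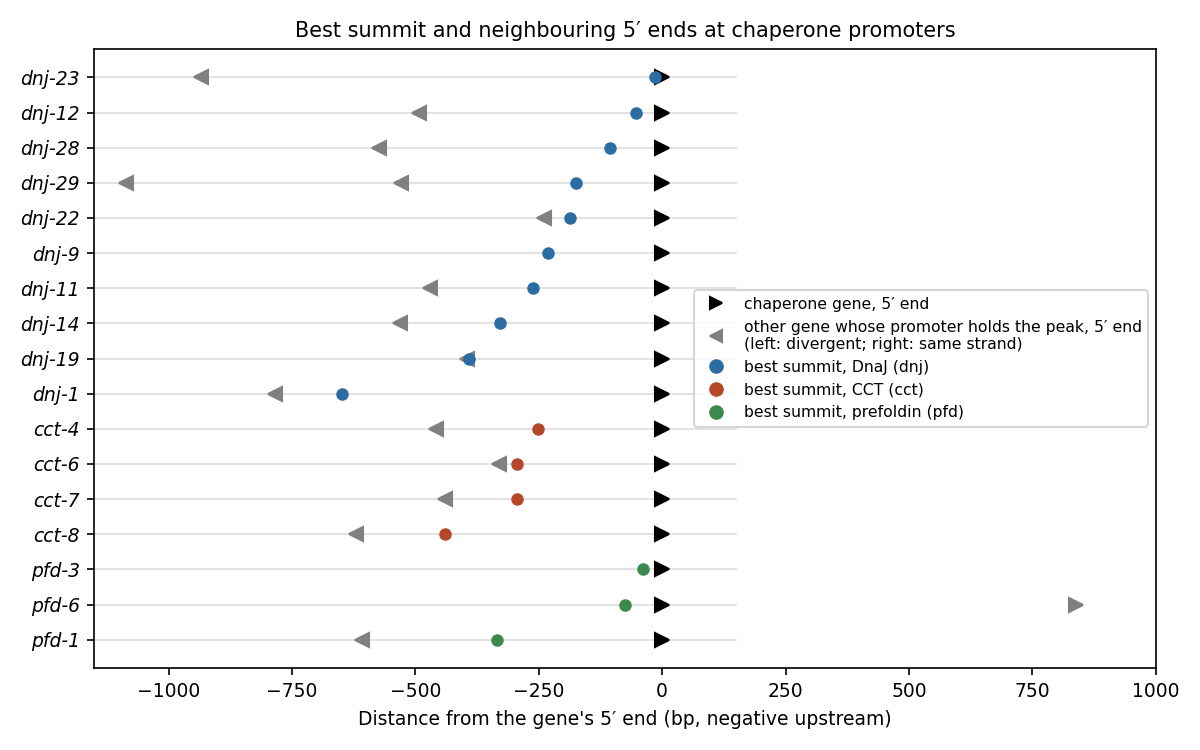
Position of the best summit (coloured circle) relative to the 5′ end of each chaperone gene (black arrowhead at 0), in bp with upstream to the left, for the 17 genes with a promoter peak. Grey arrowheads mark the 5′ ends of other protein-coding genes whose promoter holds the same summit: 14 members have a divergent one to the left, and at the 4 cct genes it is the nearer of both.

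Divergent neighbours were common in the set itself, with or without a peak. A divergent protein-coding 5′ end lay no more than 1000 bp upstream of 20 of the 42 members (47.6%), against 17.7% of all protein-coding genes. Of these 20, 14 had a promoter peak (70%: 9 of 12 dnj, 4 of 6 cct and 1 of 2 pfd), compared with 29.7% of all genes with such a neighbour. The 6 without a peak were dnj-16, dnj-17, dnj-20, cct-1, cct-5 and pfd-4. Without such a neighbour, 3 of 22 members had a peak (13.6%: 1 of 16 dnj, 0 of 2 cct and 2 of 4 pfd), compared with 11.7% of all genes of that kind. The share of members with a peak was therefore close to the background where there was no divergent neighbour. When each peak was counted only for the gene with the nearest 5′ end, 7 of the 42 kept one (16.7%, against 11.6% of all protein-coding genes), made up of 5 dnj, 0 cct and 2 pfd genes. Which of the genes at a shared promoter a peak acts on was not tested.

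**Figure D3:**
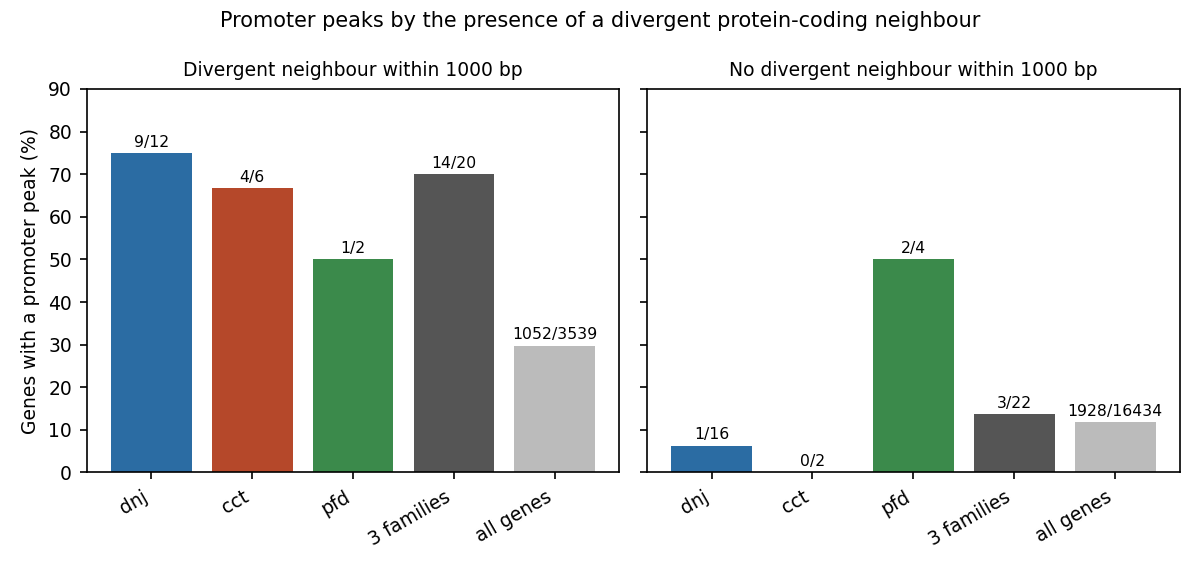
Percentage of genes with a promoter peak among genes with (left) and without (right) a divergent protein-coding 5′ end no more than 1000 bp upstream, with the counts above each bar. With a divergent neighbour the 3 families together reach 70% against 29.7% of all genes, and without one they reach 13.6% against 11.7%.

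The 25 members with no optimal promoter peak were not all without signal. In the pooled list of 30000 peaks, 12 of the 25 had a promoter summit below the optimal threshold (48%), against 16.3% of all genes without an optimal peak. Only 7 of the 25, all of them dnj genes, had no promoter summit in any of the 3 lists, against 73% of all genes without an optimal peak. They were dnj-5, dnj-7, dnj-15, dnj-17, dnj-21, dnj-26 and dnj-27, among them the mitochondrial import gene dnj-21 and the endoplasmic reticulum gene dnj-27.

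Just outside the optimal list, whose lowest signal value was 148, stood dnj-25, the auxilin gene that uncoats clathrin vesicles, with a pooled signal value of 135 and rank 6472. It was followed by pfd-4 (129, rank 6784), dnj-8 (123, rank 7076) and cct-2 (117, rank 7404). The lowest members inside the list were cct-4 (171, rank 5191), dnj-22 (191, rank 4676), dnj-1 (259, rank 3479) and pfd-6 (282, rank 3185). Of these, dnj-1 and pfd-6 were nearer the middle of the list than its end. The gene dnj-25 was present in both replicates, at rank 5322 in replicate 3 and 3154 in replicate 7, while cct-2 (5800 and 23501) and pfd-4 (5221 and 17344) were far lower in replicate 7.

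Some members had a summit in 1 replicate only. The alpha subunit gene cct-1 ranked 2141 in replicate 7, with a relative signal of 1.37, and was listed neither in replicate 3 nor in the pool. The mitochondrial type A gene dnj-10 ranked 2854 in replicate 7, with 1.09, was not listed in replicate 3 and ranked 16697 in the pool. With the top 5982 peaks of replicate 7 alone 15 members had a promoter peak (35.7%, against 13.5% of all protein-coding genes), of which 12 were among the 17 and 3 were cct-1, dnj-10 and dnj-25. With those of replicate 3 alone 20 had one (47.6%, against 15.7%), all 17 and also cct-2, dnj-25 and pfd-4. For prefoldin the count was 1 in replicate 7 and 4 in replicate 3. The other members below the optimal list were weaker still in the pool or not listed there: dnj-4 ranked 10820, pfd-2 10078, dnj-18 12505, dnj-16 14430, cct-3 16536, dnj-30 21898 and dnj-3 28554, while dnj-2, dnj-20, dnj-24, cct-5 and pfd-5 were listed in 1 replicate only.

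Other definitions left the share of members above the background. Counting each peak only for the nearest gene came closest to it, with 16.7% of the members against 11.6%, and left 0 cct genes. A narrow promoter of 500 bp before and 100 bp after the 5′ end gave 16 members (38.1%, against 11.5% of all protein-coding genes). A wide one reaching 2000 bp upstream gave 17 (40.5%, against 19.2%). The strongest 50% of optimal peaks gave 13 members (31%, against 9.16%), and optimal peaks among the top 5982 of both replicates gave 12 (28.6%, against 9.91%). The cct genes kept 3 of their 4 peaks under each of the last 2 rules, losing cct-4, and the pfd genes kept 2 and 1 of 3.

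**Figure D4:**
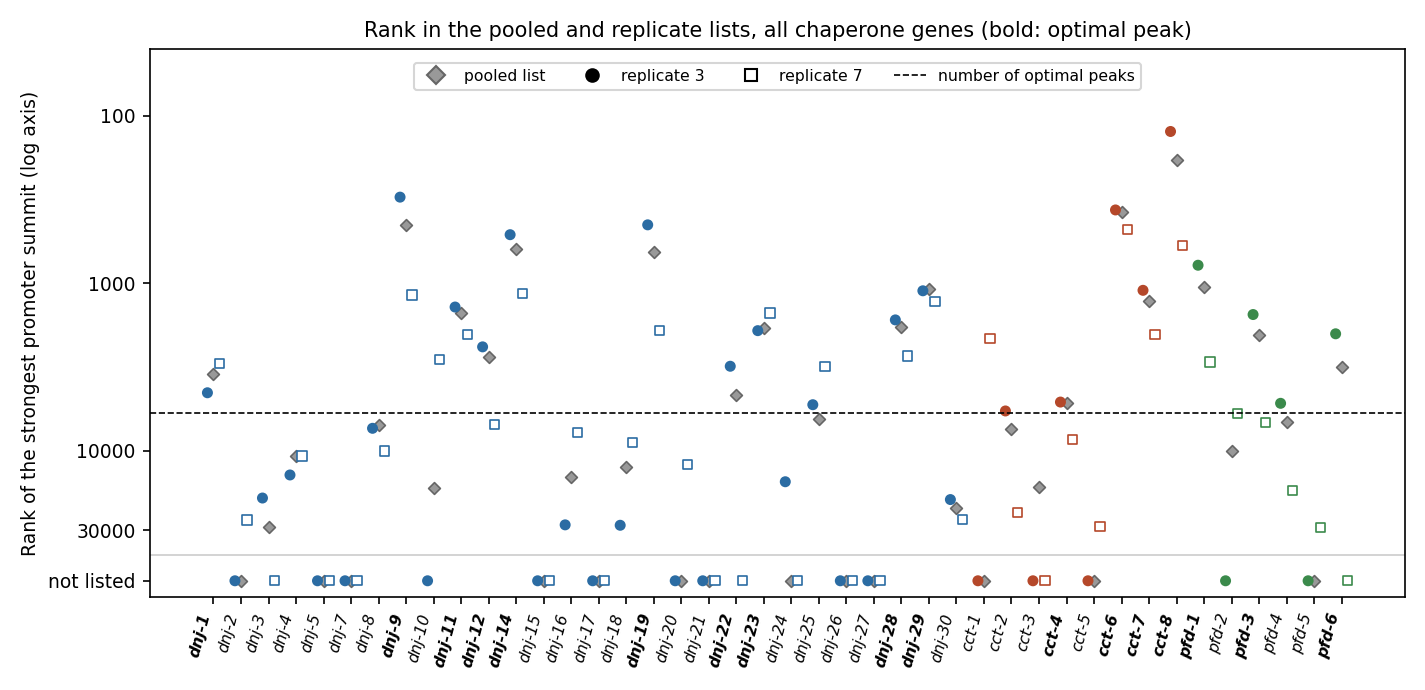
Rank of the strongest promoter summit (log axis, strongest at the top) of all 42 chaperone genes in the pooled list (grey diamonds), replicate 3 (filled circles) and replicate 7 (open squares), with genes in none of a list's 30000 peaks at the bottom. The dashed line marks rank 5982, the number of optimal peaks; cct-8 is highest, and cct-1 is above the line in replicate 7 only.

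A peak stronger than any counted so far lay just outside the promoter of dnj-16. It ranked 103, with a relative signal of 8.08 in replicate 3 and 9.42 in replicate 7 (8.75 ± 0.952), above all 17 members in each replicate. Its summit lay 328 bp downstream of the gene's 5′ end, but 79 bp upstream of the 5′ end of another annotated transcript of the gene. When the 5′ ends of all protein-coding transcripts were used, dnj-16 and dnj-20, the endoplasmic reticulum homolog of human DNAJB11, were added (19 members, 45.2%, against 16.4% of all protein-coding genes). The dnj-20 summit was weaker, 1.06 and 0.610, and lay 4638 bp inside the gene.

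Worm genes are often transcribed in operons, and 12 members (10 dnj and 2 pfd, no cct) began 500 bp or less behind the end of another gene on the same strand, 28.6% against 18.7% of all protein-coding genes. Operons themselves were not taken from the annotation. Of these 12, dnj-9 and pfd-6 had a promoter peak, in a background of 14.8%. For the other 10, the first gene of the same-strand run had a promoter peak in 4 cases, against 23.6% of all such genes without a peak of their own. These were otub-1 before dnj-3 (relative signal 0.732 in replicate 3 and 1.51 in replicate 7), epg-5 before dnj-8 (0.748 and 0.532), Y71F9B.6 before dnj-30 (0.607 and 0.510) and T04A8.8 before dnj-18 (1.31 and 0.775). None of the 4 was above 1 in both replicates.

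The sequences at the cct summits are shown because all 4 hold a pair of heat shock units within 100 bp, though none does within 50 bp. Such inverted units make up the sites of the heat shock factor HSF-1, and a pair alone is not shown to be one. None of the 4 windows holds the C/EBP core. Each window runs 100 bp to either side of the summit on the plus strand of ce11, at chrIV:1094260-1094460 for cct-8, chrIII:5855881-5856081 for cct-6, chrV:1871852-1872052 for cct-7 and chrII:8283315-8283515 for cct-4. Capitals mark matches to GAANNTTC or TTCNNGAA and, at cct-6, also the sequence TTGCGAAA, here on the minus strand.
cct-8: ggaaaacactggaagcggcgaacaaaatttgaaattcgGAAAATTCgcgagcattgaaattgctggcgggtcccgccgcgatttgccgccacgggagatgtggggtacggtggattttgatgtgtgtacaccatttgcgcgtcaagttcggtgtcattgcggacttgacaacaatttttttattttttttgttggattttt
cct-6: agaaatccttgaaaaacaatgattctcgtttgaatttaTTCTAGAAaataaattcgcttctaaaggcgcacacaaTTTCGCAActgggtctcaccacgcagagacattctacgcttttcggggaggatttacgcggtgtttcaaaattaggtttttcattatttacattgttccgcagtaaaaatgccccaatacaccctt
cct-7: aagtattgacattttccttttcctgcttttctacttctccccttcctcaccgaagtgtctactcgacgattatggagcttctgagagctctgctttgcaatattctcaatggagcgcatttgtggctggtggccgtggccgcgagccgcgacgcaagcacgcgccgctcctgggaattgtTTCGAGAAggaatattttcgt
cct-4: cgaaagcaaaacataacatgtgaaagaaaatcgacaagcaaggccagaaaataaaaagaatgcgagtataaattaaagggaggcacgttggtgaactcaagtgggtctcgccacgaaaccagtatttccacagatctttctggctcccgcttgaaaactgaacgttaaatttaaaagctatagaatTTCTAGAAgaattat

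The centre of the heat shock pair lay 58 bp from the summit at cct-8 and cct-6, 84 bp at cct-7 and 90 bp at cct-4. Counting all members, such a pair was found within 100 bp of the best summit at 9 of the 17 (52.9%), the others being dnj-1, dnj-12, dnj-19, dnj-23 and pfd-3, against 19.5% of the 2334 distinct best promoter peaks of all genes. Within 50 bp it was found at 2 of the 17, dnj-12 and dnj-23, and at no cct gene (11.8%, against 8.61%). Over whole promoters the pair was common, at 15 of the 17 members with a peak, 22 of the 25 without and 79.9% of all protein-coding genes. Of the 17, dnj-12 alone had 3 alternating units in a row within 100 bp of the summit (5.88%, against 1.89% of all best promoter peaks). That row of 3 was searched only after the windows were seen. Over whole promoters it was at 5.88% of the members with a peak and 8% of those without, close to 7.68% of all protein-coding genes. A match describes the letters and is not shown to be a bound site.

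The C/EBP core, searched on both strands as TTGCGCAA, TTGCGTAA, TTACGCAA or TTACGTAA, was in none of the 17 windows of 50 bp to either side of the summit, nor in those of 100 bp. It was within 50 bp at 1.33% of all best promoter peaks, a background too low for a set of 17 to stand apart below it. The cyclic AMP element TGACGTCA, the C/EBP-ATF composite TGATGCAA, the AP-1 site TGANTCA and the E-box CACGTG were in none of the 17 windows of 50 bp, against 1.07%, 0.814%, 3.26% and 4.58%. Within 100 bp TGATGCAA was found at dnj-1 (5.88%, against 1.59%). Over whole promoters the C/EBP core was found at 2 of the 17 members with a peak, dnj-9 and dnj-12 (11.8%), at dnj-25 alone of the 25 without, and at 5.60% of all protein-coding genes. The letters GATA were within 50 bp of 3 of the 17 summits (17.6%), against 41.6%, and within 100 bp of 8 (47.1%), against 67.1%, while GAGAGA was within 50 bp of 2 (11.8%), against 19.5%. TTGCGAAA was found at dnj-1, dnj-23 and cct-6, 3 of 17 or 17.6%, close to its share of 14.9%, and AGACGCAG at pfd-3 alone (5.88%, against 7.75%). The median GC content of the 17 windows was 47.5% (range 35.6 to 60.4%), against 44.6%.

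Windows of 50 bp to either side of 3 DnaJ summits illustrate this range, again on the plus strand of ce11. They are those of dnj-1 at chrIV:11298338-11298438 and dnj-23 at chrII:9108564-9108664, which hold TTGCGAAA, and of dnj-9 at chrII:4851775-4851875, the DnaJ member with the highest mean among those counted, which holds none of the motifs searched. Capitals mark TTGCGAAA on either strand and, in dnj-23, a heat shock pair whose centre is 8 bp from the summit.
dnj-1: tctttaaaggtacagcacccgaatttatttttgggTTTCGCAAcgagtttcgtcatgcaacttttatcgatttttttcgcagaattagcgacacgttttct
dnj-23: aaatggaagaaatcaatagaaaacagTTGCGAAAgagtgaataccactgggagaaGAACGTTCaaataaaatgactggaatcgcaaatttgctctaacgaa
dnj-9: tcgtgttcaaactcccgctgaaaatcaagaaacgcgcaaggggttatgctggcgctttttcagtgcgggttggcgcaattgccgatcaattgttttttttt

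Genes that work with these chaperones also had promoter peaks in many cases. The list was drawn up with earlier results of these data known and lends no independent support. Of 10 Hsp70 genes and relatives 7 had a peak, against 14.9% of all protein-coding genes, though F44E5.4 and F44E5.5 shared the same one. Among the 7 were hsp-1, the constitutive cytosolic Hsp70 that DnaJ proteins serve (7.14 in replicate 3 and 6.14 in replicate 7), and hsp-3, an Hsp70 of the endoplasmic reticulum (4.34 and 3.43). Of 12 Hsp90 genes and co-chaperones of Hsp90 or Hsp70, 8 had one, against the same 14.9%. Among the 8 were unc-23, a BAG-type nucleotide exchange factor of Hsp70 (7.04 and 7.41), and hsp-90 itself (1.31 and 3.28). The J-domain gene rme-8, whose symbol is outside the rule, had none. Both genes of the nascent chain binding complex, icd-1 and icd-2, had one. Of 21 actin and tubulin genes, whose products are the main clients of prefoldin and CCT, 14 had one, against 14.9% of all protein-coding genes, the strongest at tbb-2 (30.2 and 33.7) and tbb-6 (12.4 and 19.0). The best peaks of tbb-2 and tbb-6, both beta tubulin genes, were thus higher than that of cct-8 in each replicate.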

How the data were processed

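Peak lists of CEBP-1 ChIP-seq were deposited by the authors for 2 biological replicates and their pool in the ce10 and ce11 builds, and only those on ce11 were used. Per the deposited text files, the optimal list was derived from the replicate and pooled lists with an irreproducible discovery rate threshold, and each of those from alignments and 1 control file. Neither the peak caller nor that threshold is given in the sources used here. The signal per peak was deposited by the authors in the narrowPeak column for it. It was checked that the optimal peaks are the strongest 5982 of the pool by signal.

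Genes were those of Ensembl release 115 on WBcel235, the assembly of ce11, and sequences came from RefSeq's copy of WBcel235. Every peak ended within its chromosome. Coordinates are 1-based. Peaks were assigned with Python 3.11.15, numpy 2.4.6 and pandas 2.3.3, and the assignment was tested on simulated data. The 42 members, the partner genes and the motifs were chosen with earlier results of these data known, and every member with a peak was named. TGGGTCTC and the row of 3 heat shock units were added after the windows were seen. Alternatives were other promoter widths, transcript starts, the nearest gene only, stronger or replicated peaks, each replicate alone, summit distances of 50 and 200 bp and motif windows of 100 bp. Labels name the replicates biological, and no test between groups was possible.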

Additional observations from a re-analysis of the deposited data

How the results depend on the processing

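Counts were recomputed under 8 alternatives. The number of members with a promoter peak was between 12 and 20 except when each peak was given to the gene with the nearest 5′ end, which left 7 members in all, 5 dnj and 0 cct genes. Peaks found in both replicates left 1 pfd gene, and leaving out each replicate gave 1 to 4. The share of all protein-coding genes with a promoter peak became 9.16% with the strongest 50% of peaks and 9.91% with peaks found in both replicates. The narrow promoter lost dnj-1, and the strongest 50% of peaks lost cct-4, dnj-1, dnj-22 and pfd-6. Best peaks in a shared promoter numbered 11 to 17 under the 7 alternatives run for them. They were 12 of 16 with the narrow promoter, 15 of 17 with the wide one and 15 of 19 with all transcript starts. The strongest 50% of peaks gave 11 of 13, and peaks found in both replicates 11 of 12. Without replicate 3 they were 12 of 15, and without replicate 7 they were 17 of 20. The share over all genes under these alternatives is not given here. Giving each peak only to the nearest gene leaves no sharing to count. Relative signals at 15 members moved by less than 1 SD at summit distances of 50 and 200 bp; with 2 replicates, dropping 1 moves a mean by less than 1 SD by construction. With the wider motif window the heat shock pair went from 2 to 9 members (8.61% to 19.5% of all best promoter peaks), GATA from 3 to 8 (41.6% to 67.1%) and TGATGCAA from 0 to 1 (0.814% to 1.59%). No paired analysis was possible because there is 1 group. The lists give no depth.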

Other observations

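The windows of cct-4 and cct-6 share the letters TGGGTCTC within 50 bp of the summit, which was noticed by eye after the windows had been seen. This sequence was found at 2 of the 17 best peaks of the set and at 1.84% of the 2334 best promoter peaks of all genes. No test was made of it.

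The 5′ end of B0035.3, on the other strand, is 209 bp upstream of pfd-4. A further gene, B0035.22, on the strand of pfd-4, ends 25 bp before pfd-4. The gene dnj-2 begins 98 bp behind the end of B0035.3 on the same strand, so that B0035.3 lies between a prefoldin gene and a DnaJ gene. Neither pfd-4 nor dnj-2 had an optimal promoter peak. The strongest promoter summit of pfd-4 ranked 6784 in the pool, and dnj-2 was listed in replicate 7 only, at rank 25959.

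By chromosome, a promoter peak was found at 5 of 9 members on I, where 20.9% of all protein-coding genes had one, and at 3 of 10 on II (13.3%). It was found at 1 of 8 on III (23.03%), which was cct-6, and at 4 of 8 on IV (14.2%). On V it was found at 3 of 5 (10.5%) and on X at 1 of 2 (11.9%).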
